A study of Mus musculus with 5 samples.

Results

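The 71 mouse miRNAs numbered miR-5046 and above were studied, out of 1122 mouse miRNAs with probes on the array. The rule uses the number in the name and no measured value, though it was set with earlier results of these data known. They fall into 2 runs of numbers, with 43 entries from miR-5046 to miR-5136 and 28 from miR-5615-3p to miR-5710. miRNA was measured in bone marrow-derived dendritic cells (BMDCs) of C3H/HeJ mice, a strain with a Tlr4 mutation that makes it unresponsive to lipopolysaccharide. Bone marrow was cultured with GM-CSF and IL-4, and CD11c+ cells were sorted with magnetic beads. The sorted cells were stimulated with flagellin at 100 ng/ml for 24 h (3 arrays) or kept in medium alone for the same time (2 arrays, the mock samples). The number of mice and cultures behind the arrays is not given in the sources used here, so p-values measure the spread between these arrays, which may be technical.

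miRNAs are short RNAs that are cut from hairpin precursors and guide Argonaute proteins to partly complementary messenger RNAs, mainly through the seed at bases 2 to 8. Names were numbered in the order in which sequences were registered, so that the 71 are late entries, the name used for them below, most of them found by deep sequencing. Some late entries have been thought to be pieces of other abundant RNAs, such as tRNA or small nucleolar RNA (snoRNA). Flagellin, the protein of bacterial flagella, activates cells through TLR5. The comparison asked which of these miRNAs changed after flagellin.

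On this array a miRNA is read by probes that pair with its 3′ end and that were made shorter for GC-rich sequences. The probes of the 71 miRNAs ran from 10 to 23 nt. For 51 of them a mature sequence was found by name in RefSeq (GRCm38.p6), and all 110 probes of those 51 were exact complements of the mature 3′ end. The mature sequences below belong to detected miRNAs whose sequence, position or difference is taken up in the results. They are written 5′ to 3′ with the seed in capitals.
miR-5100: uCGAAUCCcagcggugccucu
miR-5126: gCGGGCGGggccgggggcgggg
miR-5128: cAAUUGGGgcuggcgagauggcu
miR-5622-3p: cUUAGCUGgguagugguggugc
miR-5121: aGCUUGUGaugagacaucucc
miR-5118: aAGGUUAGgccagccuggu
miR-5103: uCAUCCGGgauccccugagg
miR-5131: cGGCGCCCcacggagccccgagc

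The longest probes of some of the same miRNAs, and those of miR-5109, miR-5105, miR-5099 and miR-5111-5p, are given because signals differed between probes of 1 miRNA. They are DNA from the deposited files, written 5′ to 3′, and the capitals mark the bases by which they exceed the shortest probe of the same miRNA.
miR-5100 probe: agaggcaccgctgG
miR-5126 probe: ccccgcccccG
miR-5128 probe: agccatctcgccagC
miR-5103 probe: cctcaggggatccC
miR-5109 probe: tcggattcccctgG
miR-5105 probe: ggccccccacG
miR-5099 probe: ggagcaccacatcG
miR-5111-5p probe: ctctaccactgagcTA

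All 6 miRNAs checked as present in dendritic and other white blood cells were detected on all 5 arrays. They were miR-223-3p, miR-142-3p, miR-142-5p, miR-155-5p, miR-146a-5p and miR-21-5p. They are not exclusive to dendritic cells, so their detection does not identify the cell type. Of 14 miRNAs of other cells, 9 were detected on no array, miR-144-3p, miR-122-5p and miR-124-3p among them. On all 5 arrays 2 were detected, miR-126-3p, an endothelial miRNA (5.04 to 29.1), and miR-206-3p, a muscle miRNA (14.8 to 19.1). The summed signal of the 14 lay between 20.4 and 39.1 on 4 arrays and was 118 on flagellin replicate 2, where miR-199a-3p, a stromal miRNA, reached 41.3 and miR-451, an erythroid miRNA, 17.0. Results in which flagellin replicate 2 stands apart are therefore also given without it. All arrays were on 1 slide, where flagellin held columns 2 and 3 and medium column 4, and so the effect of column and that of treatment cannot be told apart. In bulk RNA, fewer cells with a miRNA and less of it per cell cannot be told apart either.

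Of the 71 miRNAs, 18 (25.4%) were detected on at least 1 array, 15 of them on all 5 arrays, and 53 (74.6%) were detected on none. A miRNA is called detected when at least 1 probe has a signal above 3 times its error. With flagellin 17, 17 and 15 miRNAs were detected on the 3 arrays, and with medium 18 and 18. All 18 were detected on at least 2 arrays, so leaving out any single array could not change the number detected at least once. Among mouse miRNAs with numbers below miR-1892 the share detected at least once was 31.7%, from miR-1892 to miR-2861 it was 20.2%, and from miR-3057 to miR-3113 it was 21.0%. The share of the late entries lay between these values and was below the 29.3% of all 1122 mouse miRNAs. For the 24 with other numbers below miR-5046 it was 33.3%. The late entries held between 11.1% and 13.2% of the summed signal of all mouse miRNAs on an array. Most of this signal came from miR-5100 and miR-5126, and since probes differ it does not measure amounts of RNA. The 2 runs of numbers had unlike shares, with no test made. Of the 43 entries of the first run, 16 (37.2%) were detected, and of the 28 of the second, 2 (7.14%), miR-5620-3p and miR-5622-3p. The median probe length was 14 nt in the first run and 16.5 nt in the second, and its part in the difference was not tested.

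Detection went with short, GC-rich probes among the late entries. The 15 miRNAs detected on all arrays had a median probe length of 13.5 nt and a median GC content of 66.8%, against 15.5 nt and 51.7% for the 53 detected on none. The 1051 other mouse miRNAs, pooled, showed no such gap. Their medians were 16.5 nt and 51.3% when detected on all arrays and 16.5 nt and 51.5% when detected on none. Of this pool, 824 are numbered below miR-1892. Those from miR-1892 to miR-2861 had the same medians as all late entries, 14.5 nt and 58.6%. Those from miR-3057 to miR-3113 had 15.5 nt and 54.8%. Whether these nearer groups show such a gap was not tested. Above a mean probe length of 16 nt, 1 of 23 late entries was detected (4.35%), miR-5121, against 32.4% of 562 other mouse miRNAs. Between 12 and 14 nt, 10 of 17 were detected (58.8%), against 32.9% of 170 others. The other lengths differed less, with 40.0% of 10 against 37.5% of 40 up to 12 nt. Over 14 and up to 16 nt the shares were 14.3% of 21 and 20.8% of 279. These are shares of miRNAs, which are not replicates, and no test was made of them.

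**Figure D1:**
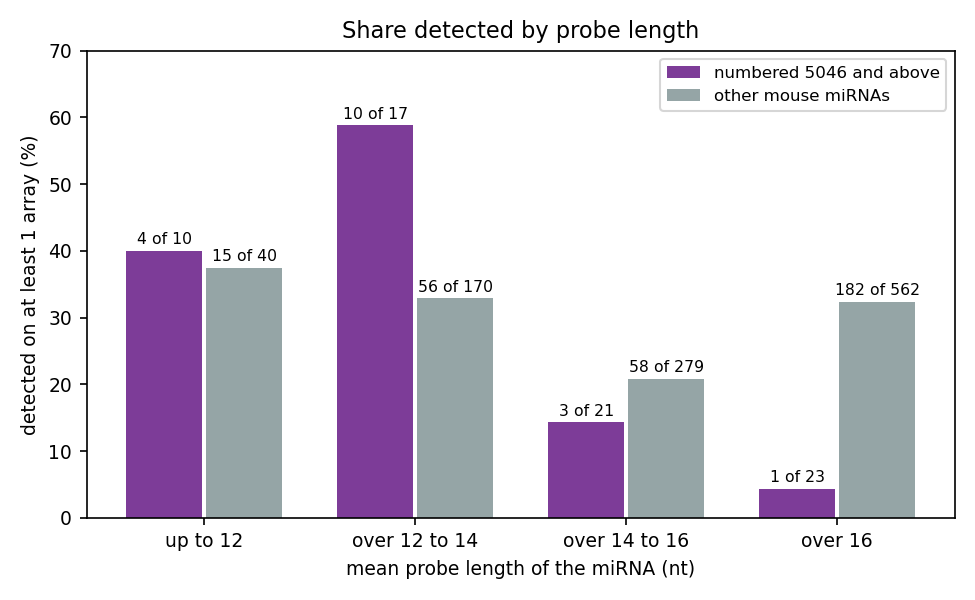
Share of miRNAs detected on at least 1 array (%, vertical axis) by the mean length of the miRNA's probes (nt, horizontal axis), for the 71 late entries (purple) and the 1051 other mouse miRNAs (grey), with the counts above the bars. Among probes over 16 nt the purple bar stands for 1 of 23 miRNAs and the grey bar for 182 of 562.

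Short and GC-rich probes did not always give a call. Of the 10 late entries whose probes averaged 12 nt or less, 6 were undetected. miR-5627-5p and miR-5105 both had probes of 10.5 nt on average with 90.5% GC. The highest signal over error of miR-5627-5p lay between -1.15 and -0.69 across arrays, while that of miR-5105 was 9.99 on flagellin replicate 1 and no lower on the others. The 2 were picked for this contrast after their values had been seen.

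**Figure D2:**
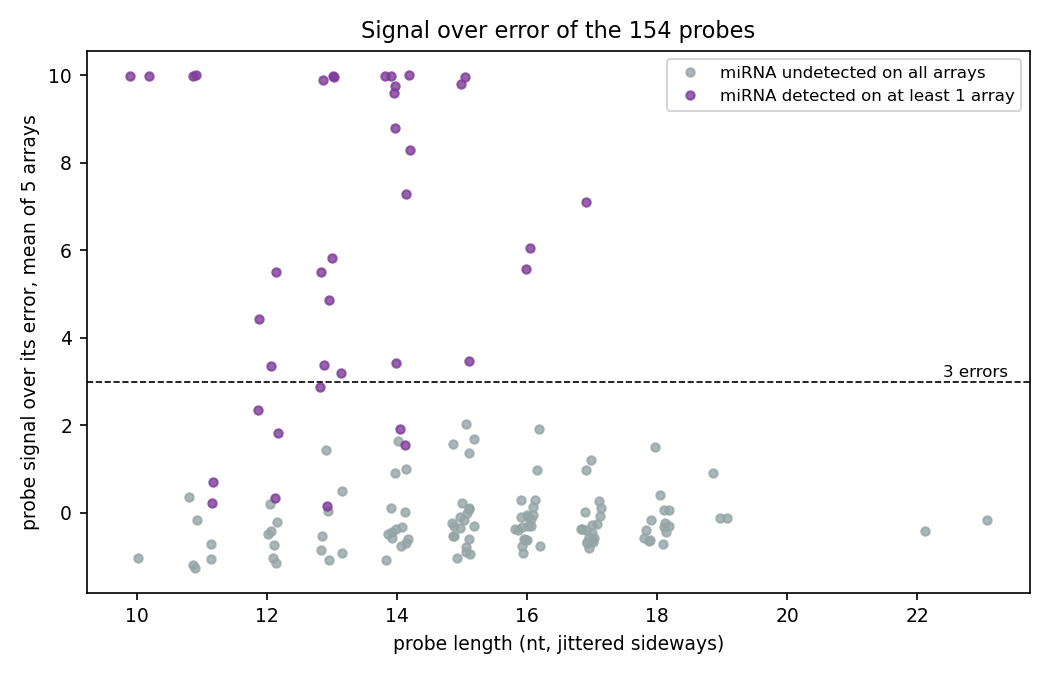
Signal over error (mean of the 5 arrays, vertical axis) against probe length (nt, horizontal axis, points shifted sideways at random within 0.2 nt) for the probes of all 71 late entries, in purple for the 18 miRNAs detected on at least 1 array and in grey for the other 53. The dashed line marks the limit of 3 errors, and bright probes level off near 10 because their error grows with the signal.

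Most undetected miRNAs were far from the limit. For 42 of the 53 the highest signal over error stayed under 1 on every array, and the highest value of each over the 5 arrays had a median of 0.155. Only 4 passed 2 errors on any array, and no undetected miRNA did so on all 5. They were miR-5115 (2.74), miR-5620-5p (2.52), miR-5110 (2.34) and miR-5615-5p (2.10), all at their highest on medium replicate 1. For 29 of the 53 undetected miRNAs the highest value fell on that array, which had the smallest median error for probes with 20 spots (1.47, against 1.53 to 1.79 on the others). With a limit of 2 errors 22 miRNAs would be detected, and with 4 errors 16.

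Both arms of the hairpin were on the array for 15 of these precursors. In 3 pairs 1 arm was detected (miR-5111-5p, miR-5620-3p and miR-5622-3p), in 12 pairs neither, and in none both. The undetected partner of miR-5622-3p, miR-5622-5p, had a highest signal over error between -0.55 and -0.13. That of miR-5620-3p, miR-5620-5p, came nearer to the limit, between 1.68 and 2.52.

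The brightest late entries were miR-5100 and miR-5126. Total gene signal, the sum of the probes that pass the limit, is given as deposited below, in the order flagellin replicates 1, 2 and 3 and then medium replicates 1 and 2, and levels of different miRNAs are not amounts that can be compared, since probes differ. For miR-5100 it was 12749, 12468 and 12033 after flagellin, against 12968 and 11733 in medium. For miR-5126 it was 6017, 6483 and 5687 after flagellin, against 6793 and 6261 in medium. In both miRNAs the flagellin and medium arrays overlapped. miR-5100 lies within Mief2 on chromosome 11 (chr11:60728698-60728718, plus strand, GRCm38.p6). miR-5126 lies within Dner, a Notch ligand gene, on chromosome 1 (chr1:84695890-84695911, plus strand).

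The next 3 were miR-5109, miR-5097 and miR-5105. For miR-5109 the signal was 2772, 3657 and 2505 after flagellin, against 2856 and 2683 in medium. Flagellin replicate 2, the array with the higher signals of stromal and erythroid miRNAs, was the highest, and the other 4 arrays lay within 2505 to 2856. The fitted log2 difference was 0.11 (SE 0.13) and without that array 0.04, and the part of other cells in the value was not tested. For miR-5097 it was 2555, 2488 and 2415 after flagellin, against 2800 and 2494 in medium, and for miR-5105 938, 994 and 806 after flagellin, against 1074 and 1013 in medium. Medium replicate 1 was the highest array for both. In miR-5105 both medium values were above all flagellin values before scaling, but not after it.

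At intermediate signal stood miR-5128, miR-5622-3p and miR-5099. miR-5128, within Strbp on chromosome 2 (chr2:37688212-37688234, minus strand), had signals of 281, 369 and 211 after flagellin, against 309 and 290 in medium. Flagellin replicate 2 was again the highest, and without it the log2 difference went from -0.07 (SE 0.14) to -0.18. miR-5128 was itself the miRNA at the 75th percentile used for scaling on flagellin replicates 1 and 3, where its scaled log2 value is 0 by construction. miR-5622-3p, within Tpx2, a spindle assembly gene, on chromosome 2 (chr2:152865105-152865126, plus strand), had 131, 144 and 113 after flagellin, against 180 and 139 in medium. For miR-5099 the signals were 91.7, 76.6 and 61.6 after flagellin, against 108 and 91.1 in medium. Before scaling, 1 flagellin array was above the lower medium array in each of these last 2 miRNAs, and after scaling none was.

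Below a signal of 50 lay 7 miRNAs that were still detected on every array. miR-5121 is annotated wholly inside Snord33, a C/D box snoRNA gene in an intron of the ribosomal protein gene Rpl13a (chr7:45126925-45126945, minus strand). Its signals were 26.7, 25.8 and 18.5 after flagellin, against 45.4 and 26.9 in medium. Medium replicate 1 stood apart, and medium replicate 2 was close to flagellin replicates 1 and 2. For miR-5107 the signals were 33.7, 38.8 and 30.0 after flagellin, against 40.9 and 36.9 in medium. miR-5119, within Cdk12, a transcriptional kinase gene, on chromosome 11 (chr11:98262638-98262656, plus strand), had 20.8, 25.5 and 22.7 after flagellin, against 23.2 and 26.1 in medium. Before scaling, flagellin and medium arrays overlapped in both. The signals of miR-5111-5p were 12.2, 13.1 and 11.2 after flagellin, against 12.1 and 10.9 in medium. Those of miR-5130, at Kctd12 on chromosome 14 (chr14:102982608-102982631, minus strand), were 9.22, 11.3 and 9.18 after flagellin, against 12.1 and 11 in medium. These groups overlapped too. For miR-5620-3p they were 8.89, 9.38 and 8.17 after flagellin, against 8.84 and 9.17 in medium. For miR-5118, within the long non-coding RNA gene Gm45968 on chromosome 16 (chr16:55494770-55494788, plus strand), they were 3.44, 4.22 and 3.21 after flagellin, against 3.92 and 3.87 in medium. miR-5118 had the lowest signal of the miRNAs detected throughout, between 3.06 and 3.81 errors.

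**Figure D3:**
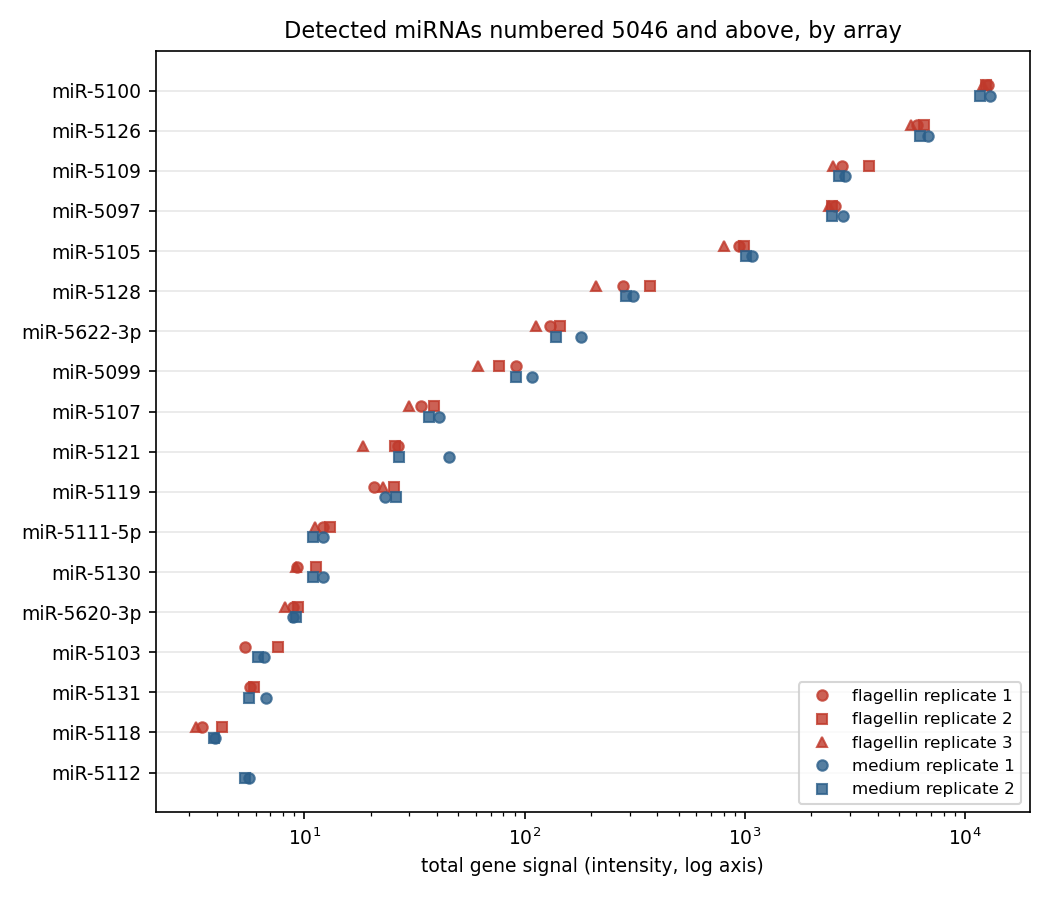
Total gene signal (deposited intensity, log axis) of the 18 detected miRNAs on each array, with flagellin arrays in red and medium arrays in blue and a marker shape per replicate; arrays on which a miRNA was undetected have no point. miR-5112 has points on the 2 medium arrays only, and miR-5103 and miR-5131 have none for flagellin replicate 3.

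Probes of the same miRNA that differ by 1 base often differed in signal. For miR-5100 the probe of 14 nt, with G as the base added at its 3′ end, was 13.6 ± 0.963 times as bright as the probe of 13 nt (SD, n = 5 arrays). For miR-5128 the ratio of the longer to the shorter probe was 8.44 ± 0.366 and for miR-5097 5.63 ± 0.153. At the other end, both probes of miR-5126, at 10 and 11 nt and 100% GC, gave the same signal within the spread between arrays, with a ratio of 0.990 ± 0.0220, and for miR-5109 the ratio was 1.16 ± 0.0258. For miR-5099 the shorter probe had signals of 3.98 to 6.88 and the longer one of 61.6 to 101. The probe of 13 nt for miR-5103 had signals under 1 on all arrays and the probe of 14 nt signals of 3.81 to 7.56. Where both probes passed the limit on every array, steps of 1 base gave ratios between 0.990 and 13.6, and the spread between arrays was small against the difference between miRNAs.

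What the sequences share with other RNAs was looked up in RefSeq. Of the 51 miRNAs with a position, 42 (82.4%) overlapped protein-coding genes, against 54.3% of 830 other mouse miRNAs on the array. miR-5121 was the only one of the 51 that overlapped a tRNA, rRNA, snRNA or snoRNA gene (1.96%), against 5 of the 830 (0.602%). Positions were found for 10 of the 18 detected late entries, so these shares say nothing of the other detected ones. miR-5103 (chr1:34433130-34433149, minus strand) overlapped no annotated gene, and miR-5131 lay within Ddhd1 (chr14:45657972-45657994, minus strand). No detected late entry with a known mature sequence had a seed in common with another mouse miRNA, and 7 undetected ones did, such as miR-5106 with miR-6897-3p.

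A pair of 8-letter runs that recur in tRNA genes was searched on the given strand, after the sequences of the late entries had been seen. TCGAATCC, found in the T loop of many tRNAs, occurred in 1 of 1679 mature mouse miRNAs (0.0596%), miR-5100, where it begins at the first base and so covers the seed. TAGCTCAG, found in the D arm of many tRNAs, occurred in 1 of 1679, miR-5106, and in the probe targets of 2 of 1122 miRNAs, miR-5106 and miR-5111-5p. miR-5106 was detected on no array and miR-5111-5p on all 5. The search of mature sequences covered the 51 late entries matched by name, 10 of the 18 detected ones among them. For the rest, miR-5112 included, it saw only the 3′ stretch that the probes pair with. Outside this search, the forward PCR primer that the paper lists for miR-5112 also contains TAGCTCAG, though the same primer is listed for miR-3091-5p. The complement of the 10 nt probe of miR-5126 occurred, on either strand, in 1740 of 32851 promoter windows of 250 bases before to 50 bases after a gene start (5.30%), and that of the 11 nt probe in 1.78%. For the 33 probes of 10 nt of other mouse miRNAs the median share was 0.170% and the highest 1.03%. Such a match describes the sequence and does not show where the signal came from.

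Flagellin and medium were then compared with limma over the 307 mouse miRNAs detected on at least 2 arrays, all 18 detected late entries among them. All but 1 of the 18 passed this filter with arrays of both groups, and miR-5112 passed it through the medium arrays alone. After Benjamini-Hochberg adjustment in limma, 1 of the 18 was lower with flagellin at an adjusted p under 0.05, miR-5112, against 0.651% of all 307, and 0 were higher, against 0% of all 307. At an unadjusted p under 0.05, 4 of the 18 were lower, miR-5099, miR-5112, miR-5121 and miR-5622-3p, where 4.23% of all 307 were, and 0 were higher, where 1.63% were. The count of 4 was 1 with the percentile over all mouse miRNAs or with no scaling and 2 with quantile normalization. Each array's total gene signals were divided by their 75th percentile over the 277 miRNAs detected on all arrays and values under -6.37 on the log2 scale were set to that floor.

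Among the 15 miRNAs detected on every array, none passed the adjusted threshold. The scaled log2 values of miR-5099 were -1.62, -1.94 and -1.77 after flagellin, against -1.39 and -1.43 in medium. The groups did not overlap, and the log2 difference was -0.36 (SE 0.12, adjusted p = 0.650 in limma), a ratio of 0.777. For miR-5121 the scaled log2 values were -3.39, -3.50 and -3.51 after flagellin, against -2.64 and -3.19 in medium. The difference of -0.55 (SE 0.19, adjusted p = 0.650 in limma) rested in size on medium replicate 1, being -0.27 without it and -0.83 without medium replicate 2. For miR-5622-3p the values were -1.11, -1.02 and -0.90 after flagellin, against -0.65 and -0.82 in medium, and the difference was -0.28 (SE 0.10, adjusted p = 0.818 in limma). All 3 flagellin values were below both medium values in 6 of the 18 miRNAs, where 8.79% of all 307 did so. They were above both in 0, where 11.4% did. The 6 were these 3, miR-5107, miR-5112 and miR-5131. For miR-5112 this followed from the filter and the floor, and its own scaled probe signals did not separate. Before scaling, the groups overlapped in miR-5099, miR-5107, miR-5131 and miR-5622-3p, while those of miR-5105 did not.

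The other 14 miRNAs had unadjusted p-values above 0.05. The fitted difference was below 0 in 15 of the 18, where it was below 0 in 48.2% of all 307, and the median was -0.13 over the 18 and 0.01 over all 307. Over those detected on all 5 arrays the medians were -0.08 and 0.02. The highest differences were 0.11 for miR-5109, 0.10 for miR-5111-5p and 0.03 for miR-5100, and their 95% intervals ran from -0.23 to 0.46, from -0.20 to 0.41 and from -0.36 to 0.43. The difference was -0.20 (SE 0.14) for miR-5130, -0.17 (SE 0.10) for both miR-5105 and miR-5107, and between -0.09 and -0.01 for miR-5118, miR-5126, miR-5119, miR-5128, miR-5097 and miR-5620-3p. Direction depended on scaling for several: with the 75th percentile taken over all mouse miRNAs the median of all 307 moved from 0.01 to 0.19, the median of the 18 from -0.13 to 0.02, and the number below 0 from 15 to 7. This scaling divides each array by another constant and so moves every miRNA above the floor alike.

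**Figure D4:**
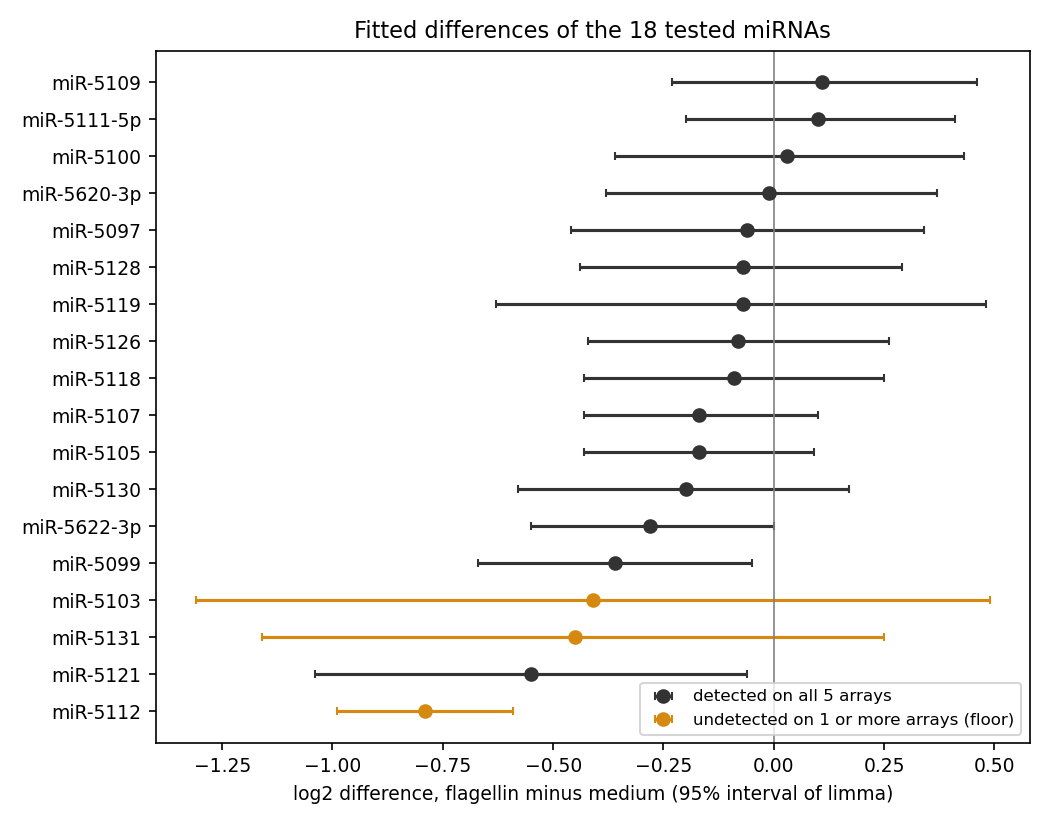
Log2 difference of scaled total gene signal, flagellin minus medium (horizontal axis), for the 18 tested miRNAs, with points for limma's estimate and bars for its 95% interval; black marks miRNAs detected on all 5 arrays and orange those at the common floor on 1 or more arrays. 15 of 18 points lie below 0, and the bars of 14 cross it.

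Near the detection limit 3 miRNAs were detected on some arrays and not on others, and for these the signal of the deciding probe was compared as measured. Since the study singled out miR-5112 on these same arrays, its direction here is no independent evidence. By qRT-PCR, outside these arrays, the paper also reported lower miR-5112 after flagellin in BMDCs and in spleen dendritic cells. On the arrays miR-5112 was undetected on all 3 flagellin arrays and detected on both medium arrays. Its probe of 13 nt had signals of 3.97, 4.85 and 4.22 with flagellin, at 2.37 to 2.65 errors, and 5.63 and 5.38 with medium, at 3.58 and 3.21 errors. All 3 flagellin signals were below both medium signals, by a mean of 1.16, where the exact two-sided permutation test gave p = 0.2 (0.6 adjusted over the 3 probes tested), and the smallest p it allows is 0.1. After scaling the groups touched, with 0.0200 on both flagellin replicate 3 and medium replicate 1, and the exact permutation p was 0.3. The 12 nt probe of miR-5112 stayed under the limit everywhere, with signals of 2.52 to 3.23.

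The adjusted p of 0.0363 for miR-5112 in limma thus belongs to values at the floor. The 3 flagellin values stood at -6.37 without any spread and the medium values at -5.65 and -5.52, a difference of -0.79 (SE 0.08). With the 13 nt probe's own signals in place of the floor, the medium level was 1.25 times the flagellin level, an imprecise value, since those flagellin signals lie under the detection limit. Summed over both probes with no detection rule, the log2 difference was -0.21. The adjusted p lay between 4.50e-05 and 0.944 across 19 alternatives and was under 0.05 in 3 of them, those with lower floors and the authors' log2 values, and in none of the 5 fits with 1 array left out.

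miR-5131 and miR-5103 were undetected on flagellin replicate 3 alone. The probe of 12 nt of miR-5131 had signals of 5.64, 5.90 and 4.65 after flagellin, against 6.72 and 5.58 in medium (exact permutation p = 0.5). The groups overlapped before scaling and not after it, where the exact permutation p was 0.2, and the fitted log2 difference was -0.45 (SE 0.27). That difference rested on the floor value of flagellin replicate 3, being -0.21 without this array and -0.17 with no detection rule. The probe of 14 nt of miR-5103 had signals of 5.37, 7.56 and 3.81 after flagellin, against 6.53 and 6.17 in medium (exact permutation p = 0.7). Flagellin replicate 2 was the highest array and flagellin replicate 3 the lowest, so the range within flagellin took in both medium values. The fitted log2 difference of miR-5103 was -0.41 (SE 0.34), -0.66 without flagellin replicate 2 and -0.12 without flagellin replicate 3. The part of RNA from other cells on flagellin replicate 2 in the values of miR-5128 and miR-5103 was not tested.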

How the data were processed

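Total RNA was labelled with Cy3 and hybridized to 1-colour Agilent mouse miRNA arrays (release 18.0). Intensities were read by the authors with Feature Extraction 10.7.3.1. The deposited intensity of each spot and miRNA comes with an error and a detection call. A miRNA with no probe above 3 errors is given a total gene signal of 0.1, a rule that returned the deposited value for all 355 pairs of late entry and array (relative tolerance 0.001). The authors also deposited log2 values from GeneSpring. Each column is the log2 total gene signal minus a constant between 6.55 and 6.91, with a median between -10.23 and -9.88, so scale and direction are known.

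To scale arrays, every total gene signal was divided by the upper quartile of its array (211 to 293), taken from 277 mouse miRNAs that all 5 arrays detected. A floor of 0.0121 was set before log2 transformation. limma 3.58.1 under R 4.3.3 (default prior, no covariates, 3 residual degrees of freedom) was fitted over 307 miRNAs with Benjamini-Hochberg adjustment. Exact permutation tests used scipy 1.17.1 under Python 3.11.15. No spot was saturated, and the number of arrays limits precision. All detected late entries are named, with miR-5112 in any case; undetected ones are given by counts, except where said. Sequences of 4 late entries are not reported here. Alternatives covered scaling, floor, filter, detection, probe-level values, test, blocks and single arrays left out. The late entries and the lists were chosen with earlier results of these data known. The script was tested on simulated data.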

Additional observations from a re-analysis of the deposited data

How the results depend on the processing

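The number of late entries with an adjusted p under 0.05 stayed at 1 in the 3 alternatives that lowered the floor or took the authors' log2 values. It was 0 when all mouse miRNAs set the percentile, with no scaling, with quantile normalization, with only miRNAs detected on all 5 arrays, with no filter, with no detection rule, with both probe-level values, with the methods' t-test, with limma's trend option and with array row as a block, and in each fit with 1 array left out. The number with an unadjusted p under 0.05, 4 in the report, lay between 1 and 6 over all alternatives (6 without flagellin replicate 3). Deviations of arrays with the same replicate number were hardly correlated (0.05 and 0.01 over 307 miRNAs). With 2 medium arrays these values are not independent, and they cannot show whether such arrays shared a culture. With replicate number as a block, a fit to which flagellin replicate 3 adds nothing, the number with an adjusted p under 0.05 was also 0. The difference of miR-5100 in that fit was -0.09. The median difference of the late entries was 0.02 with that wider percentile, 0.00 with no filter over all 71, and between -0.20 and -0.06 with single arrays left out. With the wider percentile the differences turned to 0.12 for miR-5097, 0.01 for miR-5105 and miR-5107, 0.03 for miR-5118, 0.11 for miR-5119 and miR-5128, 0.10 for miR-5126 and 0.17 for miR-5620-3p. For miR-5620-3p the difference was 0.23 with quantile normalization, 0.02 with no detection rule and 0.01 with both probe-level values, and between -0.13 and 0.12 with single arrays left out. At probe level miR-5100 stood at -0.07 and, with normexp, at -0.08, and miR-5111-5p at -0.11 with processed signals. With single arrays left out the range was -0.09 to 0.12 for miR-5100, -0.19 to 0.03 for miR-5097 and -0.26 to 0.11 for miR-5119. Of 357 log2 differences of single miRNAs under alternatives, 326 kept their sign, 8 rounded to 0.00 and 23 had the other sign. The causes were not tested, apart from the floor, which sets the flagellin values of miR-5112. Signals within a few errors of the limit are not resolved by 5 arrays.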
